A study of Mus musculus with 8 samples.

Results

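Messenger RNA of 39 genes of fatty acid oxidation and ketone body synthesis was measured in liver tumours and in adjacent liver of male mice. The 39 genes were chosen by symbol, all were found among the 34745 genes of the deposited table, and all 39 were among the 15009 genes with enough counts to be tested. The table comes from 8 sequenced liver libraries of 4 mice that had been given diethylnitrosamine (DEN), a liver carcinogen, 8 months before tissue was taken. All 4 mice carried a pT3 plasmid: in 2 mice (numbers 1 and 2) it held the gene the sample titles call mA3 and the labels call APOBEC3B, a member of the APOBEC3 family of cytidine deaminases, and in 2 mice (numbers 1 and 9) it was the pT3-vector control. Each mouse gave a library from tumour and a library from relatively normal liver, called adjacent here, so that mA3 tumour, vector tumour, mA3 adjacent and vector adjacent held 2 libraries each. Every mouse had received DEN, so adjacent liver had seen the carcinogen too, and the sources used here do not state strain or dose. The study asked how APOBEC3B affects hepatocellular carcinoma, per its title.

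Fatty acids are taken up, bound and activated to acyl-CoA, and long chains cross into the mitochondrion as carnitine esters. There a repeated cycle of dehydrogenation, hydration, a second dehydrogenation and thiolysis shortens them to acetyl-CoA, while peroxisomes shorten very long, branched and bile acid side chains by a parallel set of enzymes. In liver, much of the acetyl-CoA is turned into ketone bodies during fasting, and the nuclear receptor PPARα switches on many of these genes.

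Total counts ran from 12969929 to 22882531 per library. On the first principal component, which held 50.73% of the variance, the library of vector tumour 1 lay at -31.77, close to the adjacent libraries (-61.23 to -42.54), while the other tumour libraries lay at 60.68 to 101.8. The names mA3 and APOBEC3B do not settle whether the plasmid held the mouse gene Apobec3. Counts of Apobec3 are therefore given without being a check of the plasmid's gene. Apobec3 had 10.6 and 15.3 CPM (read counts made comparable between libraries by TMM scaling) in mA3 tumours and 7.85 and 15.2 CPM in vector tumours. It had 44.96 and 35.1 CPM in mA3 adjacent liver and 2.71 and 9.96 CPM in vector adjacent liver. The tumours of the plasmid groups thus overlapped in Apobec3, and adjacent liver was higher in both mA3 mice without passing (2.67 ± 0.62 on the log2 scale, adjusted p = 1.00, edgeR). The sum of 9 hepatocyte markers ran from 98420 to 241700 CPM in tumours and from 48730 to 122100 CPM in adjacent liver, with Alb alone at 21090 to 171200 CPM over the 8 libraries. Of the 9, 1 rose (Apoa1) and 0 fell, with a median log2 difference of 0.62, and Apoh, Hnf4a and Apob lay between -0.24 and -0.07 and Ttr at 0.0061. Of the other lists, 2 of 8 Kupffer cell and macrophage markers fell (Clec4f and Timd4; sum 89.8 to 185.9 CPM in tumours and 172.4 to 455.8 CPM in adjacent liver) and 1 of 5 bile duct markers rose (Spp1; sum 103.0 to 613.9 CPM in tumours and 41.6 to 57.0 CPM in adjacent liver), while 0 markers of endothelial, stellate, T and NK, B, neutrophil, erythroid or fat cells were called. Of the bile duct markers, Spp1 alone ran from 31.9 to 592.5 CPM over the 8 libraries. Sox9 (log2 difference 2.04), Krt7 (0.68), Epcam (0.35) and Krt19 (-0.11) did not pass, and Krt7, Epcam and Krt19 reached at most 2.52 CPM. The part of all these cell types in the results below was not tested. In bulk tissue, fewer cells of a type and less RNA per cell cannot be told apart.

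These genes made up less of the messenger RNA of tumours than of adjacent liver. The 39 genes together took 0.672% and 0.708% of all counts in mA3 tumours and 1.36% and 1.13% in vector tumours, against 1.53% and 1.63% in mA3 adjacent liver and 1.88% and 1.69% in vector adjacent liver. All 4 tumour libraries lay below all 4 adjacent libraries in this share, which weighs each gene by its counts. The gap between vector tumour 1 and mA3 adjacent 1 depends on Scp2. It had 35608 of 17997206 counts in vector tumour 1 and 93876 of 22076910 in mA3 adjacent 1. The separation is therefore not a trait of the 39 genes as a set. Over both plasmids, 9 of the 39 genes fell in tumours and 0 rose (edgeR quasi-likelihood test, Benjamini-Hochberg adjusted p under 0.05 over 15009 genes). Over all genes tested, 1.69% fell and 2.94% rose, and among the 5694 genes with a mean of at least 20 CPM 2.85% fell. The 9 were Scp2, Acaa1b, Crot, Etfdh, Hsd17b4, Cpt2, Ech1, Eci1 and Eci2. The log2 difference was below 0 in 35 of the 39 genes, with a median of -0.86, against 0.01 over all genes and -0.10 over those at 20 CPM or more. It was below 0 in 49.5% of all genes and in 57.6% of those at 20 CPM or more. At an unadjusted p under 0.05, 24 of the 39 were lower and 0 higher, against 1585 lower and 1781 higher of the 15009 genes tested.

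The main fit left 4 residual degrees of freedom per gene, and its test also draws on the spread of other genes. The calls moved with the method. Over all genes, DESeq2 called 1940 of 15009 and edgeR without the low-count filter 2450 of 23237, against 696 of 15009 by the main fit. Of the 39, DESeq2 called 22 lower and edgeR without that filter 18, and 0 were called higher by either. With the mouse as a block, which pairs tumour and adjacent liver of the same animal, 4 were called (Scp2, Acaa1b, Crot and Ehhadh). Without mA3 adjacent 1, mA3 adjacent 2, mA3 tumour 1, mA3 tumour 2 or vector adjacent 1 the count was 0. It was 1, 3 and 12 after removal of vector tumour 9, vector adjacent 9 and vector tumour 1, in that order. The median of the 39 differences stayed between -1.05 and -0.70 when single libraries were left out.

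**Figure D1:**
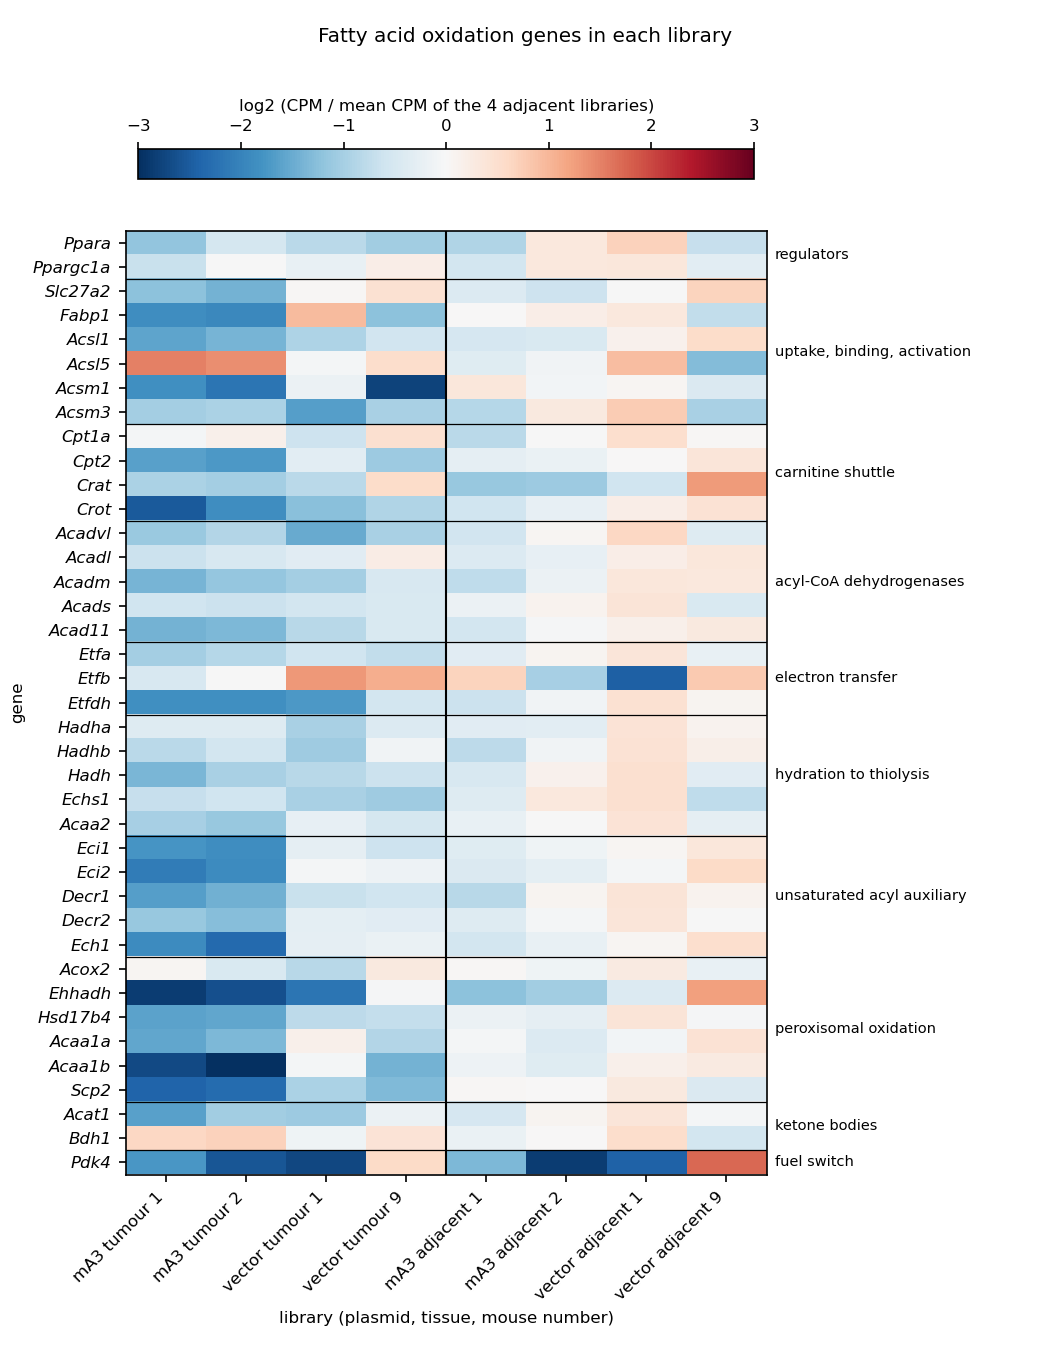
Each cell is the log2 ratio of a gene's CPM to its mean over the 4 adjacent libraries, with the 39 genes in rows by role and the 8 libraries in columns; colours are capped at -3 and 3. The median ratio was -1.36 and -1.15 in the mA3 tumours and -0.66 and -0.49 in the vector tumours, against -0.40 and -0.11 in mA3 adjacent and 0.34 and 0.07 in vector adjacent liver.

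The heat map of single libraries shows a graded pattern, lowest in both mA3 tumours. Within mice, 34 genes were lower in tumour than in adjacent liver of mA3 mouse 1, 33 in mA3 mouse 2, 35 in vector mouse 1 and 32 in vector mouse 9. For 27 of the 39 the tumour was lower in 4 of 4 mice, and for 0 it was higher in 4 of 4 mice. Over all genes tested, 14.8% were lower and 15.8% higher in 4 of 4 mice. For 9 of the 39 all 4 tumour libraries lay below all 4 adjacent libraries (Acsl1, Cpt2, Crot, Acadvl, Etfa, Hadha, Hadh, Hsd17b4 and Scp2), and for 0 all tumours lay above. Over all genes 5.32% lay below and 6.81% above, and among those at 20 CPM or more 8.47% lay below and 4.97% above.

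Levels between genes were compared in FPKM (read counts divided by gene length and by library depth). Fabp1, a fatty acid binding protein that carries acyl chains through the liver cell, was the most abundant of the 39 at 2825 ± 3054 FPKM in tumours and 3914 ± 1056 FPKM in adjacent liver (SD, n = 4 libraries each). Scp2 came next in adjacent liver, at 220 ± 100.5 FPKM in tumours and 664 ± 117 FPKM in adjacent liver. Ppargc1a was the scarcest, at 0.740 ± 0.183 FPKM in tumours and 0.792 ± 0.221 FPKM in adjacent liver. The standard deviation of Fabp1 in tumours exceeded its mean, with vector tumour 1 apart from the other 3 tumours.

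**Figure D2:**
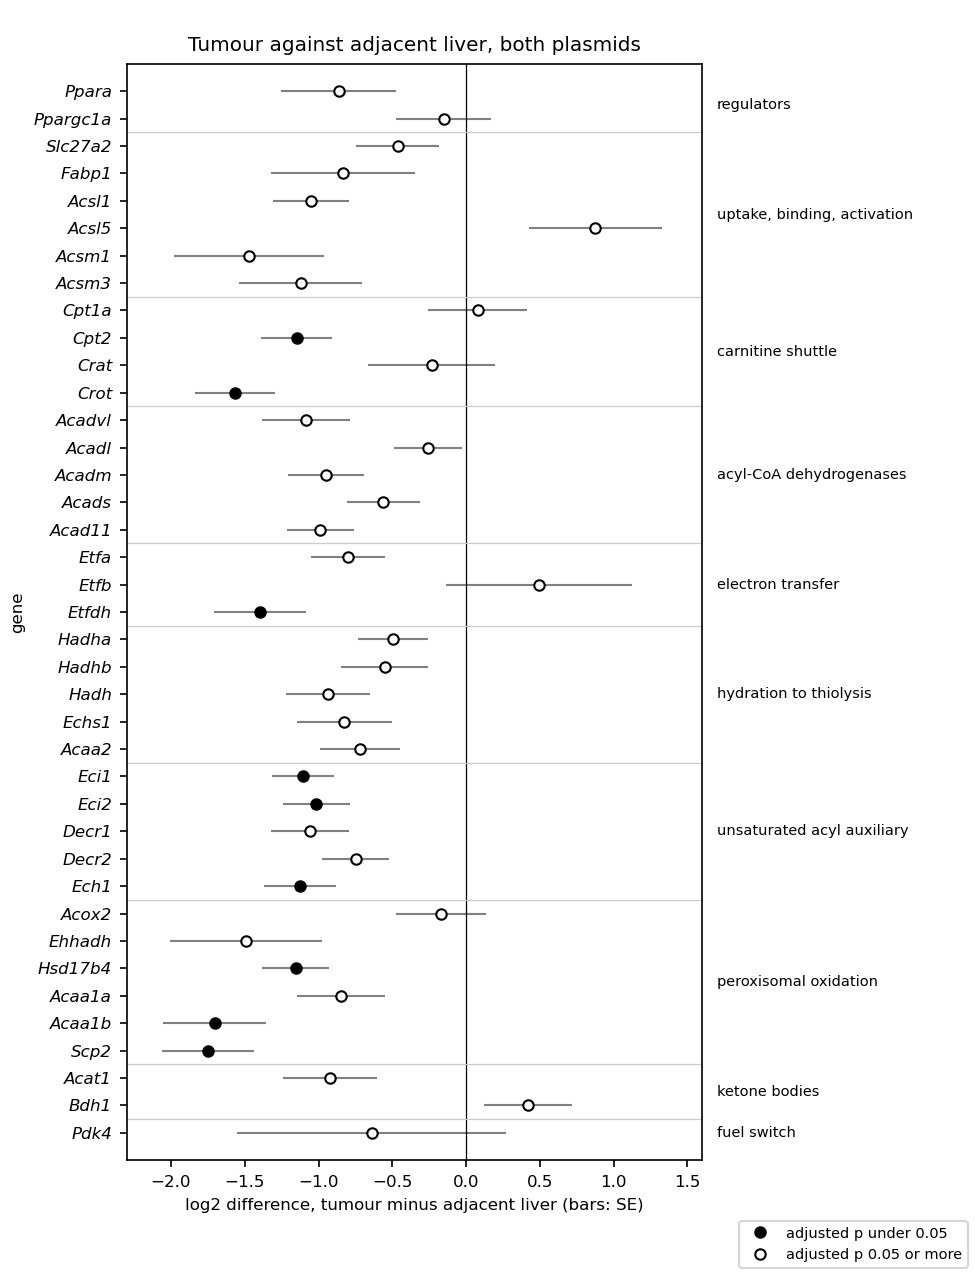
Points are log2 differences between tumour and adjacent liver over both plasmids for the 39 genes by role, with bars of 1 SE. Filled points passed the test. They run from -1.75 for Scp2 to -1.01 for Eci2, and the 4 genes above 0 (Acsl5, Etfb, Bdh1 and Cpt1a) did not pass.

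The receptor itself did not pass. Ppara, which encodes PPARα, had 40.4 and 63.2 CPM in mA3 tumours, 51.9 and 44.2 CPM in vector tumours, 48.5 and 113 CPM in mA3 adjacent liver and 147.5 and 56.1 CPM in vector adjacent liver. Adjacent liver varied about its mean more than tumour did, the groups overlapped, and the difference was -0.86 ± 0.39 (log2, SE; adjusted p = 0.240, edgeR). Ppargc1a, a coactivator of PPARα, had 4.28 and 6.71 CPM in mA3 tumours, 5.79 and 7.79 CPM in vector tumours, 4.62 and 8.51 CPM in mA3 adjacent liver and 8.58 and 5.49 CPM in vector adjacent liver. Its groups overlapped throughout, with a difference of -0.15 ± 0.32 (adjusted p = 0.826, edgeR).

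Of the 6 genes of uptake, binding and activation, 0 passed, 3 were lower at an unadjusted p under 0.05, and the median was -0.94. Acsl1, a main acyl-CoA synthetase of liver, had 317 and 361 CPM in mA3 tumours, 501 and 635 CPM in vector tumours, 666 and 690 CPM in mA3 adjacent liver and 1044 and 1400 CPM in vector adjacent liver. The 4 libraries of each tissue did not overlap and the difference was -1.05 ± 0.26, just short of the threshold (adjusted p = 0.0597, edgeR). Acsl5, a synthetase of the same family, had 736 and 676 CPM in mA3 tumours, 247.5 and 370 CPM in vector tumours, 199 and 238 CPM in mA3 adjacent liver and 488 and 104.0 CPM in vector adjacent liver. It was higher in tumour in all mice but vector mouse 1, and its difference of 0.88 ± 0.45 did not pass (adjusted p = 0.295, edgeR). The medium-chain synthetase genes Acsm1 (-1.47 ± 0.51) and Acsm3 (-1.12 ± 0.42) and the peroxisomal and surface transporter and synthetase gene Slc27a2 (-0.46 ± 0.28) lay below 0 and did not pass. Of the 50-base stretches of Acsm3 transcripts 34.0% also occur on the opposite strand of other genes, mainly in Eri2. The strand setting of the counting is not known, so its value is less certain.

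The promoter window of Fabp1 is shown because a direct repeat of 2 half-sites for nuclear receptors spaced by 1 base, the kind of element PPARα binds with RXR, stood in 1 of the 34 members with a window in the RefSeq table (build GRCm38.p6, 250 bases before to 50 after the start; all but Decr1, Acat1, Hsd17b4, Crat and Acaa2). It is that of Fabp1, at chr6:71199629-71199928 on the plus strand. Capitals mark the repeat (AGGNCA, 1 base, AGGNCA, read here on the other strand, from base -67 to -55) and the half-sites (AGGTCA, either strand; one lies in the repeat and one from -9 to -4).

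Fabp1: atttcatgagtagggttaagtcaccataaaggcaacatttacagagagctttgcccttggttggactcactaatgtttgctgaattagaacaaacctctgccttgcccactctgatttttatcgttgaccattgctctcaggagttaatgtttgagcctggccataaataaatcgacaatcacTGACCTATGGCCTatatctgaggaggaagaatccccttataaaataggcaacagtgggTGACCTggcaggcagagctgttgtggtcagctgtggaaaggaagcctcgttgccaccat

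Over all 32851 windows, 0.381% held the repeat and 16.3% held a half-site. The half-site stood in windows of 8 of the 34 members with one (Slc27a2, Acadm, Scp2, Fabp1, Acsm1, Echs1, Acadvl and Cpt1a), and in 1 of the 8 genes that fell and had a window, Scp2. These 34 members have 37 windows, and in 7 of them the first 30 transcribed bases are in no GENCODE vM21 transcript of the gene, among them the windows of Acadm, Acadvl and Scp2. Counted inwards from the start of the gene in the deposited table, those of Acadm and Acadvl start at -11 and -17 bases, close to it. The window of Fabp1 starts 52 bases inside the gene. Its half-site from -9 to -4 thus lies within the gene as deposited, and its repeat from -67 to -55 lies just before it. Those of Scp2 and Acsm1 start 26.5 and 10.8 kb inside the gene, so their half-sites are not shown to lie at the main start. That of Eci2, which fell and has no half-site there, starts 33.0 kb inside. A match of letters is a description of a window and does not show binding.

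Fabp1 had 603 and 572 CPM in mA3 tumours, 4214 and 938 CPM in vector tumours, 2218 and 2523 CPM in mA3 adjacent liver and 2733 and 1326 CPM in vector adjacent liver. Its values are given although the rule for named genes did not ask for them, as are those of Acsl5, Cpt1a, Bdh1 and Pdk4, which were chosen after their values were seen. Both mA3 tumours were below every other library, and vector tumour 1 was above every adjacent library. The difference over both plasmids was -0.83 ± 0.49 (adjusted p = 0.354, edgeR).

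Of the 4 genes of the carnitine shuttle, 2 fell and 2 did not pass; differences between the 4 were not tested. Crot, the peroxisomal octanoyltransferase that hands shortened chains to carnitine, had 93.1 and 148 CPM in mA3 tumours, 227 and 286 CPM in vector tumours, 355 and 454 CPM in mA3 adjacent liver and 615 and 726 CPM in vector adjacent liver. It fell by 1.57 ± 0.27 on the log2 scale with no overlap between tissues (adjusted p = 0.0258, edgeR). Cpt2, the inner-membrane carnitine palmitoyltransferase, had 42.3 and 39.8 CPM in mA3 tumours, 105 and 61.1 CPM in vector tumours, 109 and 115 CPM in mA3 adjacent liver and 133 and 167 CPM in vector adjacent liver. It fell by 1.15 ± 0.24 (adjusted p = 0.0424, edgeR), with vector tumour 1 just below the lowest adjacent library.

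Cpt1a, the outer-membrane transferase that gates entry of long chains, did not follow Cpt2. It had 356 and 415.5 CPM in mA3 tumours, 243 and 520 CPM in vector tumours, 212 and 368 CPM in mA3 adjacent liver and 525 and 383 CPM in vector adjacent liver. Tumour and adjacent values were interspersed and the difference was 0.08 ± 0.33 (adjusted p = 0.920, edgeR), running from -0.25 to 0.30 as single libraries were left out. Crat, the transferase for acetyl groups, had 25.2 and 24.0 CPM in mA3 tumours, 27.4 and 70.3 CPM in vector tumours, 22.0 and 22.6 CPM in mA3 adjacent liver and 32.1 and 117 CPM in vector adjacent liver. Both libraries of vector mouse 9 stood above the other 6, and the difference of -0.23 ± 0.43 did not pass (adjusted p = 0.799, edgeR).

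All 5 acyl-CoA dehydrogenases, which carry out the opening step of each cycle for different chain lengths, were below 0, and 0 passed. Acadvl, for very long chains, had 57.7 and 67.8 CPM in mA3 tumours, 43.6 and 62.7 CPM in vector tumours, 83.1 and 128 CPM in mA3 adjacent liver and 189 and 94.98 CPM in vector adjacent liver. Its tissues did not overlap, at -1.08 ± 0.30 (adjusted p = 0.0800, edgeR). Acad11 (-0.99 ± 0.23, adjusted p = 0.0524, edgeR) and Acadm, for medium chains (-0.95 ± 0.26), came close to it, while Acads, for short chains (-0.56 ± 0.25), and Acadl, for long chains (-0.26 ± 0.23), differed less. Of the 50-base stretches of Acadvl transcripts 26.9% also occur in other genes when both strands are counted, mainly on the opposite strand in Dvl2, and the sources used here do not say whether counting used strand.

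The electrons of that step pass to the flavoprotein ETF, made of the products of Etfa and Etfb, and on through its dehydrogenase, the product of Etfdh. Etfdh had 62.8 and 62.6 CPM in mA3 tumours, 68.3 and 153 CPM in vector tumours, 143.5 and 210 CPM in mA3 adjacent liver and 307 and 236 CPM in vector adjacent liver. It fell by 1.40 ± 0.31 (adjusted p = 0.0475, edgeR), with vector tumour 9 above the lowest adjacent library. Etfa was lower with no overlap (159 to 212 CPM in tumours, 253 to 415 CPM in adjacent liver) but did not pass (-0.80 ± 0.25, adjusted p = 0.109, edgeR). Etfb was counted at only 0.652 to 8.71 CPM in the 8 libraries, against 159 to 415 CPM for its partner, and 44.8% of its 50-base stretches are shared with another annotated gene on the same strand, so its value (0.50 ± 0.63) is uncertain.

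The later steps of the mitochondrial cycle, hydration to thiolysis, held 5 genes below 0 and 0 that passed (median -0.72). Hadha and Hadhb encode the subunits of the mitochondrial trifunctional protein and lie head to head on chromosome 5 with 85 bases between them in the deposited table. Hadha was at -0.50 ± 0.24 and Hadhb at -0.55 ± 0.29 (adjusted p = 0.261 and 0.312, edgeR), and 19.7% of the 50-base stretches of Hadhb also occur in other genes on the same strand, mainly in Gm13910. The stretch between them is shown as the window both genes face, at chr5:30155003-30155302 on the plus strand (GRCm38.p6, RefSeq), with the bases between the genes in capitals; it holds neither motif above.

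Hadhb: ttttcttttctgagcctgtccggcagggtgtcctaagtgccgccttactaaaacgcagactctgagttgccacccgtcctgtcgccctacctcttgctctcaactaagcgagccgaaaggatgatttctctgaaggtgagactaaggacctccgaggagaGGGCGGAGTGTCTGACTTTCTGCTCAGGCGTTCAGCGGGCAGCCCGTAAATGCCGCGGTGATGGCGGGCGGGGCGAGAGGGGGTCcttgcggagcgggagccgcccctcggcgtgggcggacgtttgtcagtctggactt

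Within mice, Hadha differed by -0.05 and -0.08 in mA3 mice 1 and 2 and by -1.37 and -0.52 in vector mice 1 and 9. Hadhb differed by -0.04 and -0.44 in mA3 mice and by -1.51 and -0.29 in vector mice. Both subunits were thus lower in tumour in 4 of 4 mice, with the largest gap in vector mouse 1. Hadh, the short-chain hydroxyacyl dehydrogenase (-0.94 ± 0.29), Echs1, the short-chain hydratase (-0.83 ± 0.32), and Acaa2, the medium-chain thiolase (-0.72 ± 0.27), were lower at an unadjusted p under 0.05 only.

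The auxiliary enzymes that handle double bonds of unsaturated chains held 3 of the 9 genes that fell, and all 5 were lower at an unadjusted p under 0.05. Eci1, a mitochondrial enoyl-CoA isomerase, had 36.0 and 33.8 CPM in mA3 tumours, 102 and 80.1 CPM in vector tumours, 95.5 and 113 CPM in mA3 adjacent liver and 128 and 156 CPM in vector adjacent liver. It fell by 1.11 ± 0.21 (adjusted p = 0.0334, edgeR). Both mA3 tumours were far under every other library, while vector tumour 1 lay within the adjacent range.

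Eci2, an isomerase found in peroxisomes and mitochondria, had 31.5 and 36.1 CPM in mA3 tumours, 128 and 120.3 CPM in vector tumours, 99.4 and 110.0 CPM in mA3 adjacent liver and 128 and 199 CPM in vector adjacent liver. Ech1, a dienoyl-CoA isomerase, had 81.3 and 59.5 CPM in mA3 tumours, 248 and 262 CPM in vector tumours, 206 and 258 CPM in mA3 adjacent liver and 314 and 423 CPM in vector adjacent liver. In both genes the mA3 tumours stood alone at the bottom and both vector tumours lay within the adjacent range. Eci2 fell by 1.01 ± 0.23 and Ech1 by 1.12 ± 0.25 over both plasmids (adjusted p = 0.0477 and 0.0449, edgeR). The dienoyl reductase genes Decr1, mitochondrial (-1.06 ± 0.26, adjusted p = 0.0629, edgeR), and Decr2, peroxisomal (-0.75 ± 0.22, adjusted p = 0.0975, edgeR), did not pass.

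Peroxisomal oxidation had the lowest median of the roles with more than 1 gene, at -1.32, with 3 of 6 called. Scp2, whose products are a peroxisomal thiolase for branched chains and a sterol carrier, had 745 and 795 CPM in mA3 tumours, 2041 and 1581 CPM in vector tumours, 4090 and 3977 CPM in mA3 adjacent liver and 4859 and 2946 CPM in vector adjacent liver. It fell by 1.75 ± 0.31 (adjusted p = 0.0272, edgeR), the largest fall of the 9, with no overlap between tissues. Of its 50-base stretches 29.7% also occur in other genes on the same strand, mainly in the pseudogene Scp2-ps2.

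Hsd17b4, the bifunctional hydratase and dehydrogenase of peroxisomes, had 124 and 129 CPM in mA3 tumours, 219 and 231 CPM in vector tumours, 334 and 316 CPM in mA3 adjacent liver and 495 and 373 CPM in vector adjacent liver. It fell by 1.16 ± 0.23 (adjusted p = 0.0366, edgeR) with no overlap between tissues. Acaa1b, a peroxisomal thiolase, had 159 and 127 CPM in mA3 tumours, 1001 and 390 CPM in vector tumours, 944 and 808 CPM in mA3 adjacent liver and 1159 and 1258 CPM in vector adjacent liver. It fell by 1.71 ± 0.35 (adjusted p = 0.0385, edgeR), with vector tumour 1 inside the adjacent range.

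Acaa1a, the sister thiolase on the same chromosome, lies 183 kb away and did not pass (-0.85 ± 0.30, adjusted p = 0.145, edgeR). The ratio of Acaa1b to Acaa1a in FPKM was 6.08 and 4.19 in mA3 tumours, 11.7 and 9.37 in vector tumours, 12.8 and 14.0 in mA3 adjacent liver and 16.0 and 12.03 in vector adjacent liver. The ratio was therefore lower in each of the 4 tumours than in every adjacent library, and lowest in the mA3 tumours. Reads of the pair cannot be fully told apart, since 30.5% of the 50-base stretches of Acaa1b and 12.9% of those of Acaa1a occur in other genes on the same strand, mainly in each other.

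Ehhadh, the bifunctional enzyme of the inducible peroxisomal pathway, had 51.2 and 58.4 CPM in mA3 tumours, 79.9 and 356 CPM in vector tumours, 156 and 179 CPM in mA3 adjacent liver and 277 and 853 CPM in vector adjacent liver. Its difference of -1.49 ± 0.52 did not pass (adjusted p = 0.138, edgeR), while within mice the tumour was lower by 1.26 to 1.80 on the log2 scale in 4 of 4, and with the mouse as a block it passed. Vector mouse 9 was the highest mouse in each tissue. Acox2, the oxidase for bile acid intermediates and branched chains, was at -0.17 ± 0.31 and between -0.51 and 0.056 as single libraries were left out.

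**Figure D3:**
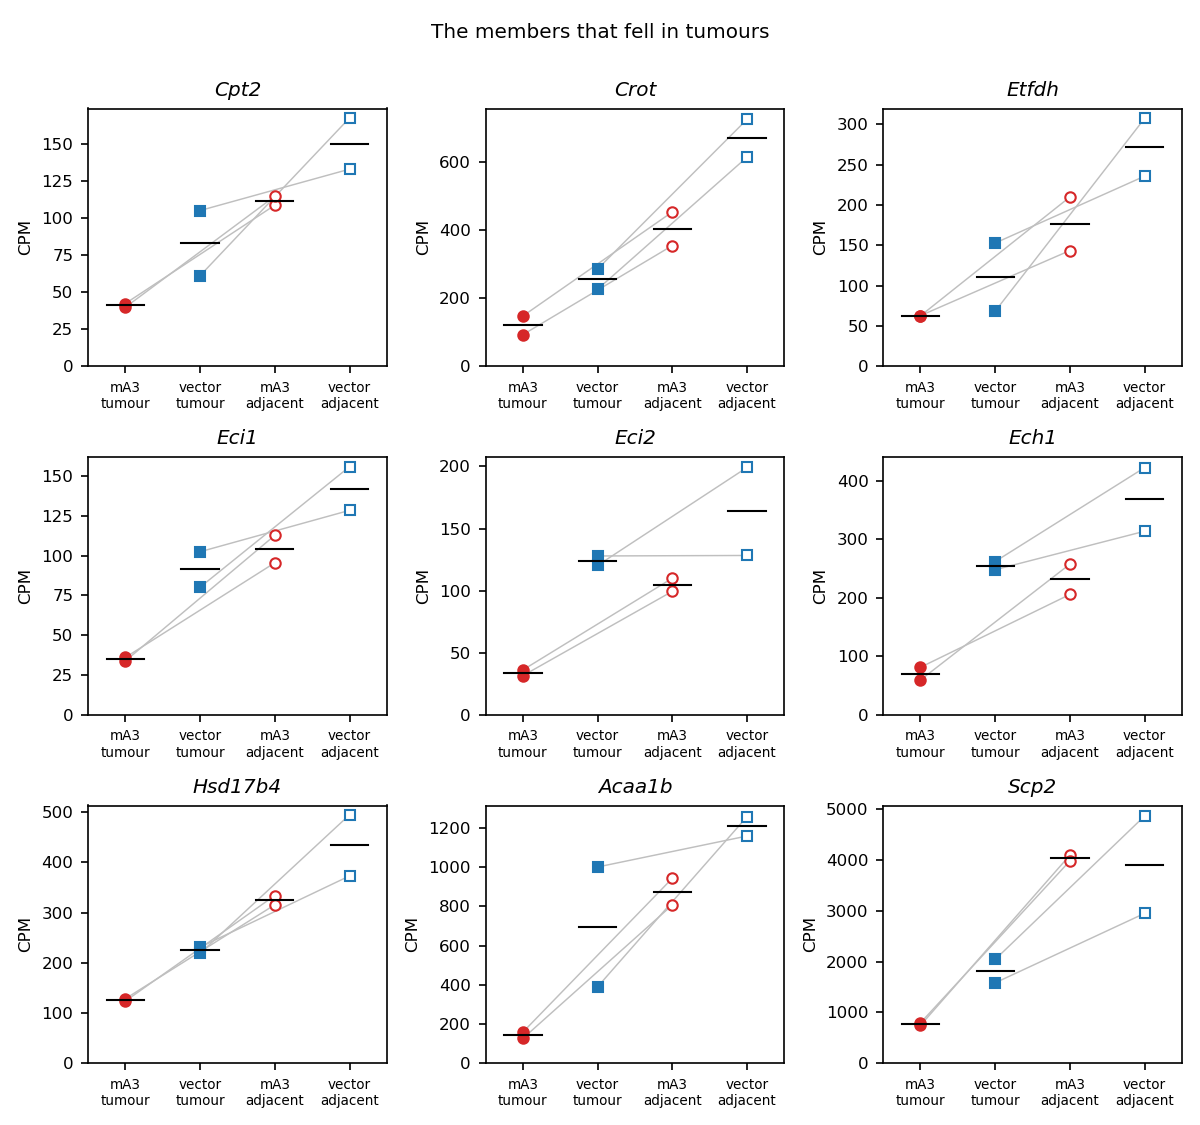
CPM of the 9 genes that fell, by group, with circles for mA3 and squares for vector libraries (filled for tumour, open for adjacent), black bars for the mean of each group and grey lines joining the tumour and adjacent liver of a mouse; axes start at 0. The mA3 tumours are lowest in all 9 panels, for example 745 and 795 CPM for Scp2 against 2041 and 1581 CPM in vector tumours. The 9 were chosen by the test over both plasmids, which low values in mA3 tumours help a gene to pass. Their order by plasmid is therefore no separate evidence on the plasmid.

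Of the 2 ketone body genes 0 passed. Acat1, the mitochondrial acetoacetyl-CoA thiolase, had a difference of -0.92 ± 0.32 (adjusted p = 0.135, edgeR). Bdh1, which interconverts acetoacetate and 3-hydroxybutyrate, had 292 and 303 CPM in mA3 tumours, 174 and 252.5 CPM in vector tumours, 164 and 191 CPM in mA3 adjacent liver and 272 and 128.5 CPM in vector adjacent liver. Bdh1 was higher in tumour in 3 of the 4 mice, all but vector mouse 1, at 0.42 ± 0.30 (adjusted p = 0.455, edgeR). Pdk4, a kinase that inhibits pyruvate dehydrogenase and so limits the conversion of pyruvate to acetyl-CoA, had 4.43 and 2.49 CPM in mA3 tumours, 2.24 and 22.1 CPM in vector tumours, 5.84 and 2.06 CPM in mA3 adjacent liver and 2.76 and 48.7 CPM in vector adjacent liver. Both libraries of vector mouse 9 stood apart from the other 6, and the difference was -0.64 ± 0.91, or 0.96 without vector adjacent 9.

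**Figure D4:**
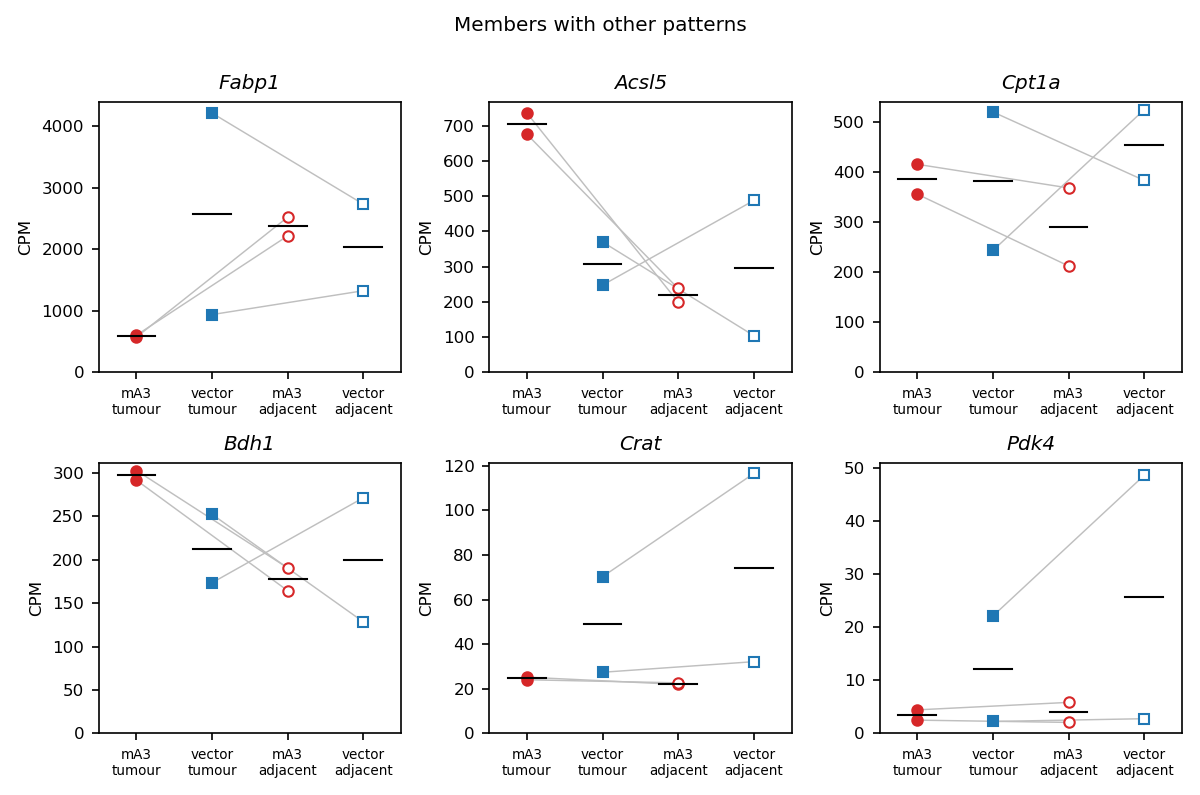
CPM of 6 genes with other patterns, by group, with circles for mA3 and squares for vector libraries (filled for tumour), black bars for group means and grey lines joining the tissues of a mouse; axes start at 0. Acsl5 was at 736 and 676 CPM in mA3 tumours against 199 and 238 CPM in mA3 adjacent liver, and Crat and Pdk4 were highest in the libraries of vector mouse 9.

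Within vector mice 0 of the 39 genes passed between tumour and adjacent liver by edgeR, as did 0.0% of all genes. At an unadjusted p under 0.05, 12 were lower and 0 higher, against 4.02% lower and 5.28% higher over all genes. DESeq2 called 2 (Acsl1 and Crot) and edgeR without the low-count filter called 2 (Acadvl and Acsm3). Over all genes these fits called 230 of 15009 and 674 of 23237, in that order. The median of the 39 was -0.80. The smallest p belonged to Crot (-1.39 ± 0.38), Acadvl (-1.42 ± 0.42) and Acsl1 (-1.10 ± 0.36), with adjusted p = 0.487, 0.508 and 0.518 (edgeR). In the library values above, all 3 were lower in both vector tumours than in both vector adjacent libraries.

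Within mA3 mice, 0 of the 39 passed by edgeR while 1.19% of all genes did. At an unadjusted p under 0.05, 20 were lower and 1 was higher (Acsl5, 1.69 ± 0.65), against 9.74% lower and 10.3% higher over all genes. The median was -0.95. Scp2 (-2.39 ± 0.45), Eci1 (-1.57 ± 0.30) and Acaa1b (-2.62 ± 0.51) had the smallest p, with adjusted p = 0.0520, 0.0538 and 0.0544 (edgeR), and all 3 had both mA3 tumours far below both mA3 adjacent libraries. Over all genes DESeq2 called 1607 of 15009, limma on log2(FPKM + 1) 395 and limma-voom 111. EdgeR without the low-count filter called 2063 of 23237, and the fit with the mouse as a block 560 of 15009. The count among the 39 moved with the method: DESeq2 called 15 lower, limma on log2(FPKM + 1) called 7, limma-voom 2, edgeR without the low-count filter 12 (1 of them higher, Acsl5), and the fit with the mouse as a block 2 (Scp2 and Acaa1b). It became 2 when vector adjacent 1 was left out, 3 for vector adjacent 9, and 11 for either of vector tumour 1 and vector tumour 9, libraries outside this comparison that share its estimate of the spread.

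Between tumours, mA3 against vector, 0 of the 39 passed by edgeR, as did 0.0% of all genes. At an unadjusted p under 0.05, 15 were lower in mA3 tumours and 0 higher, against 7.95% lower and 6.22% higher over all genes, and the median was -0.75, or -0.33 without vector tumour 9. The 15 held all 5 auxiliary genes, 5 of 6 peroxisomal genes, 2 of 4 shuttle genes, 2 of 6 of uptake and activation (Slc27a2 and Fabp1) and 1 of 5 acyl-CoA dehydrogenases, and 0 of 5 genes of hydration to thiolysis. The smallest p were those of Eci2 (-1.88 ± 0.33), Ech1 (-1.86 ± 0.35) and Eci1 (-1.39 ± 0.30), each with adjusted p = 0.268 (edgeR). In all 3, both mA3 tumours lay below the lower vector tumour, as the CPM values above show. Over all genes, DESeq2 called 508 of 15009 and edgeR without the low-count filter 1084 of 23237. Among the 39 the counts were as follows. DESeq2 called 7 (Acaa1b, Ech1, Eci1, Eci2, Fabp1, Scp2 and Slc27a2), edgeR without the low-count filter called 7 (Acaa1b, Ech1, Eci1, Eci2, Ehhadh, Fabp1 and Pdk4), and edgeR without vector tumour 9 called 2 (Acaa1b and Fabp1).

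**Figure D5:**
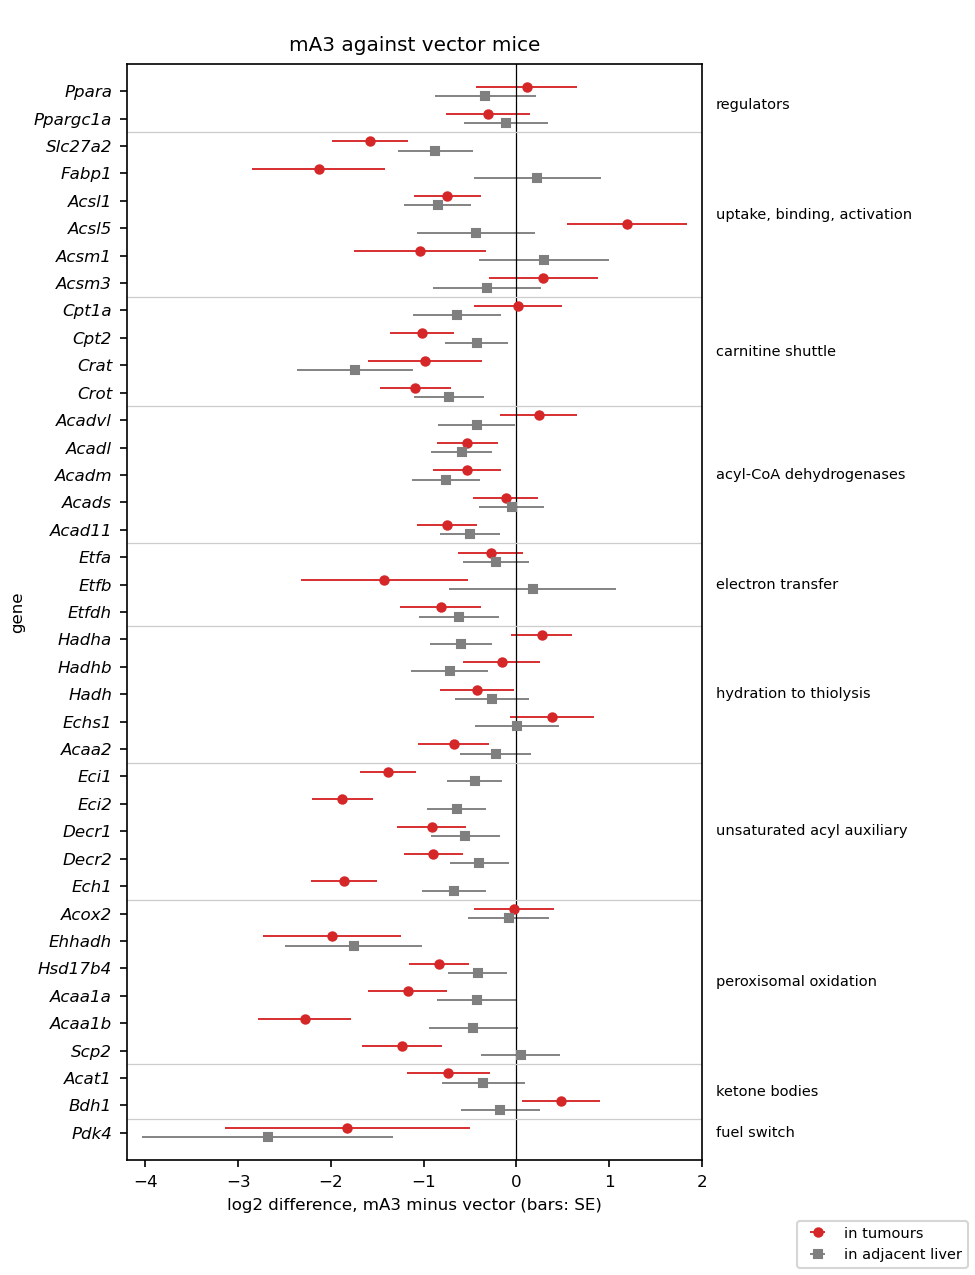
Log2 differences between mA3 and vector mice for the 39 genes by role, with circles for tumours, squares for adjacent liver and bars of 1 SE. In tumours the 5 auxiliary genes lie between -1.88 and -0.89 and the 6 peroxisomal genes between -2.28 for Acaa1b and -0.025 for Acox2, while Acsl5 at 1.19 and Bdh1 at 0.48 lie furthest to the right; none passed the test.

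In adjacent liver, mA3 against vector, 0 of the 39 passed by edgeR, as did 0.0% of all genes. At an unadjusted p under 0.05, 3 were lower and 0 higher, against 0.5% lower and 0.533% higher over all genes, DESeq2 called 0, and the median was -0.43. The 3 were Crat (-1.74 ± 0.63), Ehhadh (-1.76 ± 0.74) and Acsl1 (-0.85 ± 0.36), each with adjusted p = 1.00 (edgeR). Crat and Ehhadh were highest by a wide margin in vector adjacent 9. Without the low-count filter, edgeR called 2 of the 39, Crat and Pdk4, and 56 of all 23237 genes in that fit.

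An interaction term compared the tumour difference of mA3 mice with that of vector mice. By edgeR 0 of the 39 passed, as did 0.0% of all genes, and DESeq2 called 0. At an unadjusted p under 0.05, 4 had a lower tumour difference in mA3 mice than in vector mice (Eci2, Acaa1b, Ech1 and Fabp1) and 0 a higher one, against 2.96% and 2.03% over all genes. The median was -0.20, with values between -0.41 without vector adjacent 1 and 0.092 without mA3 adjacent 2. Both limma fits called 0 here, within vector mice and between plasmids in either tissue. Eci2 had -1.23 ± 0.45, Acaa1b -1.82 ± 0.68 and Ech1 -1.19 ± 0.49, each with adjusted p = 0.842 (edgeR). The comparisons between plasmids and the interaction share libraries with those between tissues and are not separate evidence.

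Of 54 other tested genes of lipid oxidation and ketone bodies outside the 39, 3 fell and 0 rose between tumour and adjacent liver over both plasmids, with a median of -0.74 and 42 below 0. Of the 54, 30 were lower and 6 higher at an unadjusted p under 0.05. Over all 15009 genes tested, 1.69% fell, 2.94% rose and 49.5% were below 0. At the unadjusted threshold 1585 of them were lower and 1781 higher. Among the 6 higher genes, Abcd2 (2.85 ± 0.66) and Acsl4 (1.58 ± 0.37) came closest to passing (adjusted p = 0.0533 and 0.0539, edgeR). Hacl1, the peroxisomal lyase of alpha-oxidation, had 24.2 and 20.6 CPM in mA3 tumours, 48.7 and 86.5 CPM in vector tumours, 119 and 172 CPM in mA3 adjacent liver and 202 and 255 CPM in vector adjacent liver, and fell by 2.23 ± 0.28 (adjusted p = 0.0142, edgeR). Acadsb, the dehydrogenase for short branched chains, fell by 1.33 ± 0.30 (adjusted p = 0.0465, edgeR). Acsm2 fell by 3.996 ± 0.64 (adjusted p = 0.0227, edgeR), from counts that gave at most 6.19 CPM in any library.

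Over the 8 libraries, the genes at 20 CPM or more whose log2 CPM followed the mean of the 39 most closely, out of 5658 candidates, were Hsd17b11 (Pearson r 0.982, Spearman rho 0.952), Gm4952 (0.982 and 0.976) and Hacl1 (0.975 and 0.929). These values are a description over libraries that share mice and tissues.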

How the data were processed

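Per the file headers, the deposited table gives for each gene and library a read count, whole in every cell, and the authors' FPKM value (scaled to gene length and library depth). The sources used here do not name aligner, counter or strand setting. Per the submitters' processing notes the build was mm8 and the tool Agilent Feature Extraction 10.7, which is microarray software. Of 34745 gene identifiers 34267 were in GENCODE vM21, all on the same chromosome and 81.6% within 1 bp, so positions are taken as GRCm38.

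Counts were fitted with edgeR 4.0.16 (R 4.3.3; filterByExpr, TMM, 1 coefficient per group over all 8 libraries; biological coefficient of variation 39.1%). The threshold was an adjusted p (Benjamini-Hochberg, 15009 genes) under 0.05. Standard errors came from the F statistic. The code was tested on simulated data. CPM are counts scaled with TMM factors. Group follows the labels. Nothing says that the samples come from separate cages or litters, and p-values measure the spread between these samples. The labels' plasmid and number identify the mouse and pair its tissues; paired deviations from group means correlated at 0.175 in mA3 and 0.107 in vector mice.

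Alternatives were DESeq2 1.42.0, relative log expression size factors, limma 3.58.1 (voom, and log2(FPKM + 1) with a pseudocount of 1), no low-count filter, the mouse as replicate block, and leaving out each library. Library values are given for genes called over both plasmids, for Ppara and Ppargc1a, and for the 3 genes with the smallest p in each other comparison. The 39 genes, the 56 other pathway genes (54 tested), the marker lists and the tests were chosen with earlier results of these data known. Genes share stretches where all 50-base words of their GENCODE vM21 transcripts were matched to all other transcripts. Genes on chromosome 18 have no sequence shown.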

Additional observations from a re-analysis of the deposited data

Results flagged for a closer look

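For each of the 39 genes, the 4 tumour libraries and the 4 adjacent libraries were searched for 1 library far from the other 3 on the log2 scale (gap to the nearest library over the whole range, against Dixon's critical value for 4 libraries). Of 78 such sets 4 stood out, close to the 1 in 20 that chance gives, so the number is no result about these genes. All 4 were in tumours, and whether that differs from chance was not tested. Vector tumour 1 was the lowest tumour for Hadha (ratio 0.966) and for Acsm3 (0.917). Vector tumour 9 was the highest tumour for Etfdh (0.901) and for Crat (0.878). Hadha had 137 CPM in vector tumour 1 and 201.5 to 204 CPM in the other tumours, and Acsm3 had 17.4 CPM there and 27.0 to 28.1 CPM in the others.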

How the results depend on the processing

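Tumour minus adjacent over both plasmids: edgeR called 9 of the 39 genes and 696 of all genes. DESeq2 called 22 and 1940, no low-count filter 18 and 2450, limma-voom 9 and 458, limma on log2(FPKM + 1) 8 and 514, relative log expression factors 9 and 704, and the replicate block, which pairs the tissues of a mouse, 4 and 879. Of the 9, 3 were also called under the block. Leaving out single libraries gave 0 to 12 of the 39 and 0 to 1622 of all genes, with a median difference of the 39 between -1.05 and -0.70. Each of the 9 stayed below 0 under the 14 alternatives, with Scp2 and Crot called in 8 of them and Eci2 in 5.

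Within vector mice the counts were 0 and 0 by edgeR, 2 and 230 by DESeq2, 2 and 674 without the filter, and 0 and 0 to 142 with single libraries left out (median -0.91 to -0.69). Within mA3 mice they were 0 and 178 by edgeR, 15 and 1607 by DESeq2, 7 and 395 by limma on log2(FPKM + 1), 2 and 111 by limma-voom, 12 and 2063 without the filter, 2 and 560 under the replicate block, and 0 to 11 and 0 to 1090 with single libraries left out (median -1.07 to -0.80). For mA3 against vector in tumours, edgeR gave 0 and 0, DESeq2 7 and 508, no filter 7 and 1084, and leaving out libraries 0 to 2 and 0 to 270 (median -0.82 to -0.33). In adjacent liver no filter gave 2 and 56, and leaving out libraries 0 and 0 (median -0.62 to -0.35). For the interaction DESeq2 gave 0 and 12, no filter 0 and 316, and leaving out libraries 0 and 0 (median -0.41 to 0.092). The blocked fit changed no member count in vector mice or in the interaction, and mA3 against vector within a tissue cannot be blocked, since a mouse has 1 plasmid.

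Over both plasmids the direction of 5 genes, none of them called, reversed when some single libraries were left out: Ppargc1a ranged from -0.34 to 0.095, Cpt1a from -0.25 to 0.30, Crat from -0.65 to 0.37, Acox2 from -0.51 to 0.056 and Pdk4 from -1.87 to 0.96. The causes were not tested. A fit without a library leaves 1 group with a lone library that is assumed to vary like the other groups. At 2 libraries per group and a biological coefficient of variation of 39.1%, a gene that did not pass is not shown to be equal between groups.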
